A study of Mus musculus with 8 samples.

Results

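The cytokine signalling genes Cish, Socs1, Socs2, Socs3, Pim1 and Pim2 were followed in regulatory T (Treg) cells of the mouse. They were chosen by symbol, as feedback inhibitors and kinases known to be induced by the transcription factor STAT5, and are 6 of the 52459 genes listed. All 6 passed the filter on low values and were among the 15419 genes tested. RNA was sequenced from sorted CD4+CD25hi cells in 8 libraries, 2 in each of the 4 groups that genotype and stimulation make. The aim was to learn which transcripts depend on the calcium entry through ORAI channels that STIM1 and STIM2 activate. Every mouse was C57BL/6. Cells called WT and cells called DKO (Stim1/2-deficient) were, as the methods state, taken from the same kind of animal, female mice heterozygous for Foxp3-YFPcre on a Stim1 fl/fl Stim2 fl/fl background. The labels of the DKO samples give Foxp3-YFPcre and spell the floxed alleles Stim1 fl/f and Stim2 fl/fll. WT cells were negative for YFPcre and DKO cells positive, so that both groups carried the floxed alleles, and the genotype cannot be told apart from the Foxp3-YFPcre allele itself. Cre was driven by the Foxp3 promoter. Each sample was a pool of cells from the spleen and lymph nodes of several mice, whose age is not given in the sources used here. Cells were left unstimulated or kept for 16 h on plates coated with 1 µg/ml of anti-CD3/CD28, antibodies that engage the T cell receptor and its costimulator.

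Interleukin-2 (IL-2) and the related cytokines that signal through the common gamma chain activate the kinases JAK1 and JAK3, which phosphorylate STAT5. STAT5 then enters the nucleus and induces, among other genes, those of its own inhibitors. CIS (encoded by Cish) and the SOCS proteins bind activated receptors or JAK kinases, limit their activity and, through a SOCS box, bring them to a ubiquitin ligase. The PIM kinases are serine/threonine kinases without a need for activation by another kinase, so their activity follows the amount of protein made, and they favour survival, growth and protein synthesis. Treg cells carry much of the high-affinity IL-2 receptor, and signals through it maintain them.

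STAT5 dimers bind palindromes of the form TTCNNNGAA, and the promoter windows of the genes were searched for these letters because the 6 genes are grouped by this factor. Windows ran from 250 bases before to 50 bases after each start site in RefSeq on GRCm38.p6, and 5 of the 6 genes had one. The motif reads the same on both strands. It was found in 8.30% of 32851 windows of all genes, and 2 or more times in 0.457%. Cish had 2 motifs that did not overlap, beginning at bases 1 and 12 from the start site, and Socs3 had 1, beginning 154 bases before it. The windows of Socs1 and Pim2 and both windows of Pim1 held none. A match is a description of letters and no measure of binding. The stretches with the motifs are printed 5′ to 3′ on the strand of the gene, with the motifs in capitals, for Cish from chr9:107296654-107296683 on the plus strand and for Socs3 from chr11:117969501-117969530 on the minus strand.
Cish: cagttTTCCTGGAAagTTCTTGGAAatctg
Socs3: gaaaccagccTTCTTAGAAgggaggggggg

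The libraries held 11851853 to 16306540 reads on genes, and values are normalized counts, of which 1 read made up 0.759 to 1.48. For Stim1 the unstimulated values were 1139 and 1377 in WT against 1538 and 1868 in libraries labelled DKO, and for Stim2 906 and 908 against 904 and 744. After stimulation, Stim1 had 645 and 673 against 552 and 642, and Stim2 had 665 and 782 against 620.2 and 696. None of these differences passed the test. The counts cover the whole gene and do not separate the floxed exons, so they do not check the labels, and the samples are called DKO-labelled here. The 2 unstimulated DKO-labelled libraries stood apart from the other 6 in their myeloid and Treg markers. The 12 markers of macrophages and myeloid cells summed to 11568 normalized counts in DKO-labelled replicate 1 and 1850 in replicate 2, against 459 and 474 in unstimulated WT libraries and 165 to 453 in stimulated ones. All 12 were above 0 in both of these libraries, and limma called 9 of the 12 higher, beside 1.38% of all genes. C1qa and C1qc, which encode complement subunits of macrophages, were at 0 in the unstimulated WT libraries. C1qa rested on 8 reads in DKO-labelled replicate 2. Other markers were present in unstimulated WT, such as Cd68 with 100 and 123 normalized counts. Itgam had 111 in DKO-labelled replicate 2, below WT with 192 and 167, and 393 in replicate 1. The 10 B cell markers summed to 3805 and 924 against 352 and 383, and 6 markers of CD8 T and NK cells to 1043 and 333 against 359 and 331. In stimulated libraries the B cell sums were 1106 and 234 in WT and 1646 and 350 in DKO-labelled ones, and the CD8 T and NK cell sums 576 and 243 against 1229 and 404. The 8 Treg markers, none at 0 in any library, summed to 42786 and 51185 against 96460 and 90008. Their log2 fold changes were all below 0 but uneven, from -1.79 to -0.12. Of the 8, 3 were called lower by limma, beside 3.35% of all genes tested. The T cell genes Cd3e and Cd4 were among the markers. Cd3e had 3042 and 3156 normalized counts against 3424 and 3294, and Cd4 had 10363 and 7005 against 10760 and 8918. Foxp3, the defining transcription factor gene and also one of the 8, had 4947 and 4258 normalized counts against 10001 and 8159 (-0.98 on the log2 scale, limma adjusted p = 0.0591). On recovered reads DESeq2 called 5 of the 8 markers, Foxp3 among them, beside 8.68% of all genes. There edgeR called 2, without Foxp3, beside 3.14% of all genes. The mitochondrial ribosomal RNA mt-Rnr2 took 22.1% and 13.4% of the reads in these 2 libraries, 19.6% and 20.1% in unstimulated WT and 9.78% to 13.6% in stimulated libraries. In bulk RNA, fewer cells of a type and less RNA per cell cannot be told apart.

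In unstimulated WT cells the 6 transcripts spanned a wide range of levels. Per kb of the longest protein-coding transcript, Pim1 came first with a mean of 1373 normalized counts, followed by Cish with 829 and Socs3 with 423. Socs2 with 155 and Pim2 with 153 normalized counts per kb were neighbours that did not differ beyond their spread. Socs1 was lowest, with 38.8. After 16 h of stimulation the order in WT cells was Cish with 1470 normalized counts per kb, Socs2 with 811, Pim1 with 461, Socs1 with 332, Pim2 with 276 and Socs3 with 117. The libraries labelled DKO had the same first 3 genes as WT in the unstimulated state, at 656, 541 and 495 normalized counts per kb for Pim1, Cish and Socs3, but the values of these 3 genes overlapped between the 2 libraries. After stimulation they had Cish at 1665, Socs2 at 820, Pim1 at 555, Pim2 at 476 and Socs1 at 455 normalized counts per kb, where Pim2 overlapped both of its neighbours.

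**Figure D1:**
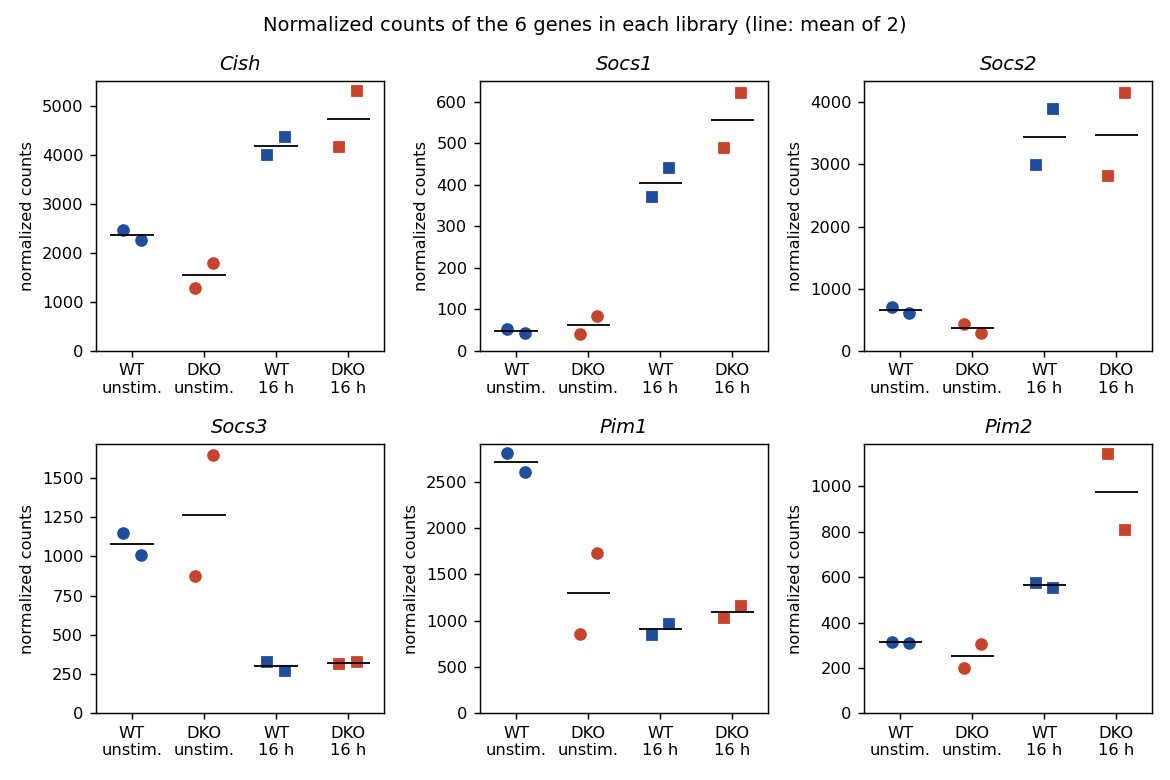
Normalized counts of Cish, Socs1, Socs2, Socs3, Pim1 and Pim2 in each of the 8 libraries (y axes start at 0 and differ between genes; blue, WT; red, libraries labelled DKO; circles, unstimulated; squares, 16 h of anti-CD3/CD28; lines, mean of 2). The unstimulated DKO-labelled circles of Pim1 lie at 857 and 1731, below the WT circles at 2604 and 2810, whereas the stimulated squares of both genotypes lie between 850 and 1157.

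The first comparison asked which of the genes differed by genotype in unstimulated cells. Pim1 was called lower in the DKO-labelled libraries, by 2.22-fold. Cish and Socs2 also lay below WT in both libraries without passing the adjusted test, and Socs1, Socs3 and Pim2 did not pass it either. Calls required more than a 1.5-fold change together with an adjusted p (Benjamini-Hochberg) below 0.05. Such calls made up 4.73% of all genes tested, 3.35% lower and 1.38% higher, beside 1 of 6 and 0 of 6 here. The median log2 fold change of the 6 genes was -0.49, and that of all genes tested was -0.01.

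Pim1, a PIM kinase known as a target of several cytokines, had 2810 and 2604 normalized counts in WT and 857 and 1731 in DKO-labelled ones. Both labelled libraries lay below both WT libraries. They also lay 2.02-fold apart from each other, and the WT libraries 1.08-fold. The log2 fold change was -1.15 (SE 0.29, 95% interval -1.79 to -0.51, limma adjusted p = 0.0498). The call lay at the edge of the threshold. On recovered reads it was made by DESeq2 (log2 fold change -1.05, adjusted p = 0.0101) and lost with edgeR (-1.07, adjusted p = 0.0665). Without DKO-labelled replicate 1, the library richest in myeloid and B cell markers, the log2 fold change was -0.64 (limma adjusted p = 0.0742). Without DKO-labelled replicate 2 it was -1.66 (limma adjusted p = 0.00261). Leaving out WT replicate 3 or 4 also ended the call (limma adjusted p = 0.384 and 0.169), with log2 fold changes of -1.10 and -1.21. Pim2, its paralog, had 316 and 310 normalized counts in WT and 198 and 307 in labelled libraries. One labelled library was low and the other nearly at the WT level. The log2 fold change of Pim2 was -0.34 (95% interval -0.94 to 0.25, limma adjusted p = 0.495).

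Cish encodes the founding member of the SOCS family and is a classical STAT5 target. Its normalized counts were 2465 and 2260 in WT and 1277 and 1804 in DKO-labelled ones. Both labelled libraries were lower, and the log2 fold change was -0.64 (SE 0.21, 95% interval -1.10 to -0.17). The unadjusted p of 0.0126 became a limma adjusted p of 0.113. Without DKO-labelled replicate 2 the gene was called (-0.89, limma adjusted p = 0.0237). Socs2, best known as an inhibitor of growth hormone signalling, had 704 and 615 normalized counts in WT against 436 and 284 in labelled libraries. It was the one gene of the 6 for which DKO-labelled replicate 2 lay below replicate 1. Its log2 fold change was -0.90 (SE 0.27, 95% interval -1.49 to -0.31, limma adjusted p = 0.0856). Socs2 was called with DESeq2 on recovered reads (-0.85, adjusted p = 0.0384) and by limma without DKO-labelled replicate 1 (-1.21, adjusted p = 0.0331).

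Socs1, which inhibits JAK kinases directly and is a strong brake on interferon gamma and common gamma chain signals, was scarce in unstimulated cells. It had 51.8 and 42.8 normalized counts in WT and 39.9 and 84.1 in DKO-labelled libraries, and the groups overlapped. These values rest on 29 to 63 reads a library, and the 95% interval of the log2 fold change ran from -0.52 to 1.11 around 0.29 (limma adjusted p = 0.690). Socs3, the main inhibitor of signals through the IL-6 receptor subunit gp130 and itself a STAT3 target, had 1146 and 1010 normalized counts in WT against 878 and 1648. The labelled libraries lay on either side of both WT libraries. The log2 fold change of Socs3 was 0.16 (95% interval -0.47 to 0.79, limma adjusted p = 0.792). Without DKO-labelled replicate 2, both Socs1 and Socs3 changed direction, to -0.24 and -0.29.

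Among the 6 genes, 4 had both unstimulated labelled libraries below both WT libraries, Cish, Socs2, Pim1 and Pim2, and none had both above. Of all genes tested, 27.1% lay below without overlap and 26.5% above. The replicates of DKO-labelled unstimulated cells lay 1.41-fold to 2.11-fold apart on these genes, and those of unstimulated WT cells 1.02-fold to 1.21-fold. DKO-labelled replicate 1 was the lower of the pair for every gene except Socs2. It was also the library with the higher sums of myeloid, B cell and CD8 T and NK cell markers and the lower sum of Treg markers, whose part in these differences was not tested.

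The second comparison was by genotype after stimulation. None of the 6 genes was called, and the largest difference was in Pim2, which had more counts in both DKO-labelled libraries than in either WT library. Lower and higher calls made up 0.110% and 0.162% of all genes tested. The median log2 fold change of the 6 genes was 0.22 and that of all genes 0.02. At an unadjusted p under 0.05 and more than 1.5-fold, Pim2 passed and the other 5 genes did not, beside 5.60% of all genes above 0 and 6.95% below. No gene of the 6 was called by edgeR or DESeq2 on recovered reads, beside 0.0065% and 3.57% of all genes.

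Pim2 had 575 and 554 normalized counts in stimulated WT libraries and 1141 and 806 in DKO-labelled ones, a 1.70-fold difference. The log2 fold change was 0.76 (SE 0.27, 95% interval 0.17 to 1.36), with an unadjusted p of 0.0167 and a limma adjusted p of 0.229. DKO-labelled replicate 1, with the higher value, also had the highest sums of B cell and of CD8 T and NK cell markers among stimulated libraries. Without it the log2 fold change was 0.51, and the part of these markers was not tested. Pim1 had 850 and 968 normalized counts in WT and 1032 and 1157 in labelled libraries. Its groups also did not overlap, but the log2 fold change of 0.27 had a 95% interval from -0.37 to 0.91 (limma adjusted p = 0.743).

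For Cish, stimulated WT libraries had 4001 and 4380 normalized counts and DKO-labelled ones 4169 and 5319. The groups overlapped, and the log2 fold change was 0.17 (95% interval -0.30 to 0.64, limma adjusted p = 0.785). Socs1 was higher in both labelled libraries, with 489 and 621 normalized counts against 369 and 440, but its log2 fold change of 0.45 had a 95% interval from -0.37 to 1.26 (limma adjusted p = 0.649). Socs2 had 2997 and 3890 normalized counts in WT against 2809 and 4150, and the WT values lay between the labelled ones. The log2 fold change of Socs2 was -0.00032, with a 95% interval from -0.59 to 0.59 (limma adjusted p = 1). Socs3 had 327 and 271 normalized counts in WT against 315 and 328, also overlapping, with a 95% interval from -0.52 to 0.74 (limma adjusted p = 0.910). The genes Socs1, Pim1 and Pim2 lay above WT without overlap, beside 24.3% of all genes, and none lay below, beside 23.1%. The intervals of all 6 genes except Pim2 include 0, and differences within those intervals were not detectable with 2 libraries a group.

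**Figure D2:**
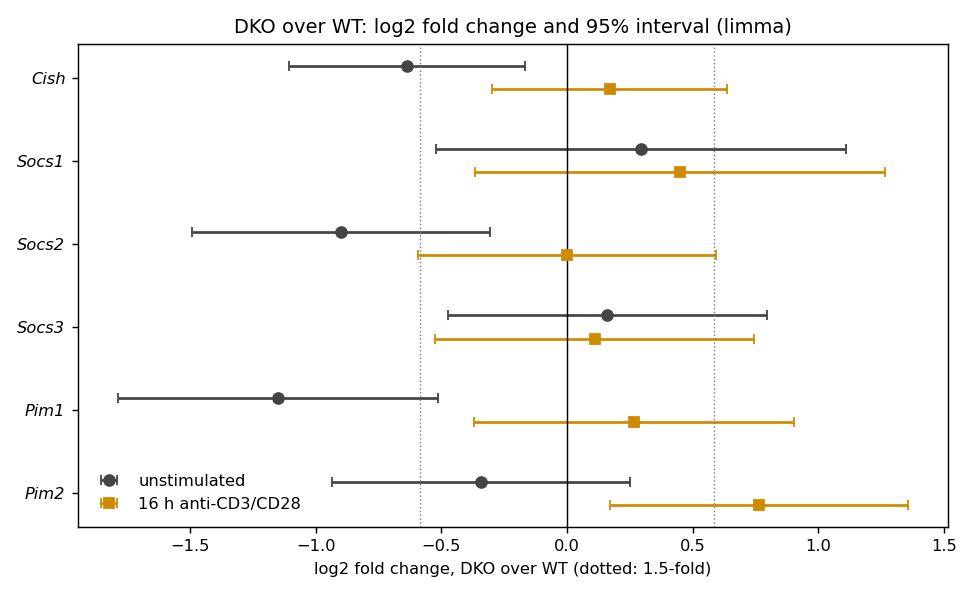
Log2 fold change of libraries labelled DKO over WT for each gene, with 95% intervals from limma (x axis; grey circles, unstimulated; orange squares, 16 h of anti-CD3/CD28; dotted lines, 1.5-fold). Unstimulated values of Cish, Socs2 and Pim1 lie below 0 with their intervals, at -0.64, -0.90 and -1.15, and the stimulated value of Pim2 lies above 0 at 0.76.

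An interaction term tested whether the genotype difference was the same before and after stimulation. The estimate was above 0 for 5 of the 6 genes, meaning a higher ratio of DKO-labelled to WT after stimulation than before. No gene was called, neither among the 6 nor among all 15419, where the percent called was 0 with limma and edgeR. DESeq2 on recovered reads called 13 genes lower and 37 higher, none of them among the 6. At an unadjusted p under 0.05 and more than 1.5-fold, 4 of the 6 passed, all above 0, beside 8.09% of all genes, 4.57% above 0 and 3.52% below.

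Pim1 had the largest interaction, 1.42 on the log2 scale (SE 0.40, 95% interval 0.52 to 2.32), with an unadjusted p of 0.00552 and a limma adjusted p of 0.556. Pim2 followed with 1.11 (SE 0.38, 95% interval 0.27 to 1.95, limma adjusted p = 0.560). Of the inhibitors, Socs2 had 0.90 (limma adjusted p = 0.585) and Cish 0.81 (limma adjusted p = 0.569). Socs1 with 0.16 (limma adjusted p = 0.957) and Socs3 with -0.05 (limma adjusted p = 0.982) had estimates near 0. Without DKO-labelled unstimulated replicate 1, the interaction of Pim1 was 0.91, and without replicate 2 it was 1.93 and called (limma adjusted p = 0.0121). Every interaction uses the unstimulated labelled libraries that stood apart, and these 2 values of Pim1 use 1 of them each. For Pim2 the genotype difference was -0.34 before and 0.76 after stimulation.

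Stimulation changed the 6 genes in different directions. In WT cells Socs1, Socs2, Cish and Pim2 rose and Socs3 and Pim1 fell, and all 6 were called. Of all genes tested, 23.3% were called, 10.2% higher and 13.1% lower. Unstimulated and stimulated libraries were sequenced on different lanes, as the file names in the labels give them, so stimulation and lane cannot be told apart. The 10 immediate early and heat shock genes listed, which cell isolation can induce, summed to 18444 to 23002 normalized counts in the 4 unstimulated libraries and 4084 to 9055 in the stimulated ones, and the part of this in the stimulation differences was not tested.

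Socs1 showed the largest rise, from 51.8 and 42.8 to 369 and 440 normalized counts in WT, 8.40-fold (log2 3.07, limma adjusted p = 0.000875). Socs2 rose from 704 and 615 to 2997 and 3890 normalized counts, 5.19-fold (limma adjusted p = 0.000732). Cish rose 1.77-fold (limma adjusted p = 0.0191) and Pim2 by 0.85 on the log2 scale (limma adjusted p = 0.0437). These 4 transcripts were higher in both stimulated libraries than in either unstimulated one. Socs3 fell 3.60-fold, from 1146 and 1010 to 327 and 271 normalized counts (limma adjusted p = 0.0026). Pim1 fell 2.98-fold, from 2810 and 2604 to 850 and 968 (limma adjusted p = 0.00484). Both genes were lower in each stimulated library. The calls of Cish and Pim2 were lost when any 1 of the 4 WT libraries was left out. Their log2 fold changes in these fits were 0.76 to 0.89 for Cish and 0.82 to 0.87 for Pim2. In a fit to the 4 WT libraries alone, both were called (limma adjusted p = 0.000711 for Cish and 0.0047 for Pim2). There 32.8% of all genes were called. Without overlap, 35.0% of all genes lay above and 36.0% below, beside 4 and 2 of the 6.

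In the DKO-labelled libraries Socs1, Socs2, Cish and Pim2 rose, Socs3 fell, and Pim1 did not pass. Of all genes tested, 25.0% were called, 13.0% higher and 12.0% lower. Socs1 rose 9.36-fold (limma adjusted p = 0.000571) and Socs2 9.67-fold (limma adjusted p = 0.000182). Cish rose 3.10-fold (limma adjusted p = 0.000913) and Pim2 3.88-fold (limma adjusted p = 0.00118). The fall of Socs3 was 3.73-fold (limma adjusted p = 0.00178), from 878 and 1648 to 315 and 328 normalized counts. Pim1 went from 857 and 1731 to 1032 and 1157 normalized counts, and the stimulated values lay between the unstimulated ones. Its log2 fold change was -0.16 (95% interval -0.79 to 0.48, limma adjusted p = 0.718). Without DKO-labelled replicate 1 it was -0.66 and called (limma adjusted p = 0.0229), and without replicate 2 it was 0.35. It was also above 0, at 0.23, with libraries rescaled to equal totals. Of all genes, 30.8% lay above and 30.6% below without overlap, beside 4 and 1 of the 6. The WT and the labelled stimulation differences share no library, and the test of their difference is the interaction given above.

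**Figure D3:**
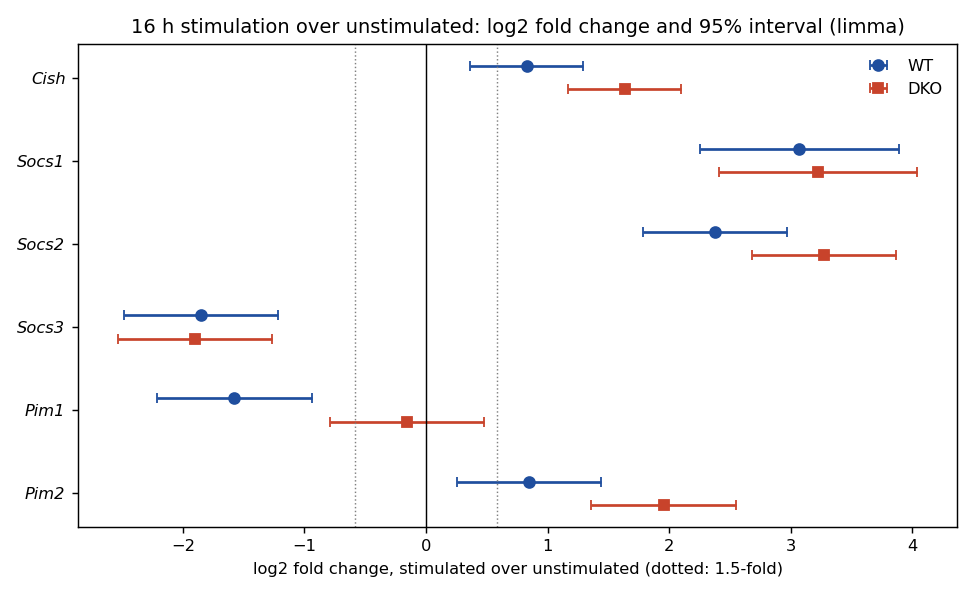
Log2 fold change of 16 h anti-CD3/CD28 over unstimulated cells for each gene, with 95% intervals from limma (x axis; blue circles, WT; red squares, libraries labelled DKO; dotted lines, 1.5-fold). Socs1 lies at 3.07 and 3.23 and Socs3 at -1.85 and -1.90 in the 2 genotypes, whereas Pim1 lies at -1.58 in WT and -0.16 in labelled libraries.

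Over the 8 libraries, Cish, Socs1, Socs2 and Pim2 varied together. Pearson's r of their log2 values was 0.916 between Cish and Socs1, 0.945 between Cish and Socs2 and 0.917 between Socs1 and Pim2. Socs3 ran opposite to Socs2 (r = -0.969). Pim1 followed neither group closely, with r of 0.695 to Socs3 and -0.296 to Cish. These are descriptions of 8 libraries in 4 groups, and the values follow stimulation, which cannot be told apart from lane. Among the 9146 genes whose mean reached 100 normalized counts, the 3 most like each gene were named by this r. For Cish they included Rpl10a-ps1 (0.992) and Hsd17b7 (0.991). Socs1 was most like Rps24 (0.993), Fam49b (0.993) and Mettl2 (0.992). Socs2 was followed most closely by Rwdd4a (0.995), Mtrr (0.995) and Il2ra (0.994), the last of which encodes the alpha chain of the IL-2 receptor. For Socs3 these were Slc25a25 (0.998), Prdx6 (0.995) and Zfand2a (0.994). Nrde2 (0.992), Mob1a (0.988) and Lin54 (0.984) were most like Pim1, and Ndufa2 (0.970), Cox17 (0.970) and Rexo4 (0.967) most like Pim2. Rpl10a-ps1 is a pseudogene by its symbol, whose reads may be shared with its parent gene.

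The other SOCS and PIM genes, Socs4 to Socs7 and Pim3, were all tested, and none was called by genotype with limma or edgeR. Of all genes, limma called 4.73% and edgeR 3.14% in unstimulated cells, and 0.272% and 0.0065% after stimulation. All 5 were below 0 in unstimulated cells, with a median log2 fold change of -0.48, and 3 below and 2 above after stimulation, with a median of -0.03. Pim3, named after its values were seen, had 698 and 490 normalized counts in unstimulated WT and 153 and 313 in labelled libraries. Both labelled libraries were lower, and the log2 fold change was -1.42 (SE 0.39, limma adjusted p = 0.0722). It was the 1 gene of the list that DESeq2 called in unstimulated cells, beside 8.68% of all genes. An unadjusted p under 0.05 with limma was reached by 2 of the 5. At that p and more than 1.5-fold, 11.1% of all genes lay below 0 and 8.68% above. After stimulation both counts of the list were 0, where DESeq2 called 3.57% of all genes. With stimulation, 1 of the 5 genes was called lower and 1 higher in WT cells, and 0 lower and 1 higher in labelled ones. Of all genes, 13.1% were called lower and 10.2% higher in WT cells, and 12.0% and 13.0% in labelled ones.

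Upstream of the 6 genes, the ligand IL-2, common gamma chain receptors, JAK kinases and STAT5 made up 13 genes, all tested. None was called by genotype with limma or edgeR in either state. Of all genes, limma called 4.73% and edgeR 3.14% in unstimulated cells, and 0.272% and 0.0065% after stimulation. In unstimulated cells 10 of the 13 were below and 3 above 0 (median -0.37). After stimulation 8 were below and 5 above (median -0.15). Il2ra had 11360 and 10408 normalized counts in unstimulated WT and 7021 and 6821 in labelled libraries (log2 fold change -0.65, limma adjusted p = 0.0810). Il2rb, the beta chain, had 6868 and 5399 against 3389 and 4128 (-0.70, limma adjusted p = 0.0683). Both receptor chains had lower counts in both labelled libraries, short of the threshold with limma. Both were called with DESeq2 on recovered reads, which called no other gene of the list in this state, beside 8.68% of all genes. Log2 fold changes were -0.37 for the common gamma chain gene Il2rg (limma adjusted p = 0.244), 0.26 for Jak1 (limma adjusted p = 0.555) and -0.13 for Jak3 (limma adjusted p = 0.821). Stat5a had 4771 and 5164 normalized counts in WT against 1863 and 6809, so that the labelled libraries enclosed the WT ones, and the value of Stat5b was 0.07 on the log2 scale (limma adjusted p = 0.933). Il2 itself was low in unstimulated cells, at 17.3 and 17.7 normalized counts in WT and 19.9 and 4.01 in labelled libraries.

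In stimulated cells DESeq2 called 2 other genes of this list, Il7r and Il9r, beside 3.57% of all genes, and limma none. Il2ra had 42365 and 50119 normalized counts in WT and 37216 and 48629 in labelled libraries (-0.12, limma adjusted p = 0.844). Il2 had 1470 and 771 against 2248 and 266 (-0.46, limma adjusted p = 0.874). The groups of both genes overlapped. Log2 fold changes of the others were -0.22 for Il2rb (limma adjusted p = 0.678), 0.59 for Il2rg (limma adjusted p = 0.161), 0.33 for Jak1 (limma adjusted p = 0.599), 0.37 for Jak3 (limma adjusted p = 0.583), -0.24 for Stat5a (limma adjusted p = 0.866) and -0.15 for Stat5b (limma adjusted p = 0.904). With stimulation, 4 genes of this list were called lower and 3 higher in WT cells, and 4 lower and 4 higher in labelled ones. The shares of all genes were 13.1% lower and 10.2% higher in WT cells, and 12.0% and 13.0% in labelled ones.

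Of 16 other genes known to be induced through STAT5, 5 were called lower and 2 higher in unstimulated DKO-labelled libraries, with a median log2 fold change of -0.27. The shares of all genes were 3.35% and 1.38%. On recovered reads edgeR called 6 of the 16, without Tnfrsf18, and DESeq2 called 9, beside 3.14% and 8.68% of all genes. Gzmb, which encodes the cytotoxic protease granzyme B, had 1714 and 950 normalized counts in WT and 156 and 115 in labelled libraries (-3.24, limma adjusted p = 0.0234). Nfil3, a transcription factor gene, had 1430 and 1197 against 135 and 337 (-2.61, limma adjusted p = 0.0189). Tnfrsf4, which encodes the costimulatory receptor OX40, had 2954 and 2671 against 461 and 1177 (-1.93, limma adjusted p = 0.0181). The labelled libraries were below WT in all 3. Bcl2l1, whose main product is the survival protein BCL-XL, had 851 and 833 normalized counts against 197 and 333 (-1.71, limma adjusted p = 0.0110). Tnfrsf18, which encodes GITR and is also one of the 8 Treg markers, was the fifth (-1.23, limma adjusted p = 0.0486).

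The 2 genes called higher in the labelled libraries were named after their values were seen. Bcl2, which encodes a survival protein, had 3345 and 3254 normalized counts in unstimulated WT and 7570 and 6538 in labelled libraries (1.09, limma adjusted p = 0.0142). Ccnd3, a D-type cyclin gene, had 413 and 445 against 1390 and 947 (1.42, limma adjusted p = 0.0125). After stimulation, Bcl2 was the 1 gene of the 16 that limma called (1.11, limma adjusted p = 0.0432), and the median was -0.10. There edgeR called 0 of the 16, DESeq2 called Bcl2 and Nfil3, and 4 had an unadjusted p under 0.05 with limma. Of all genes, limma called 0.272%, edgeR 0.0065% and DESeq2 3.57% in this state. At an unadjusted p under 0.05 and more than 1.5-fold, 6.95% of all genes lay below 0 and 5.60% above. Stimulation raised 6 and lowered 1 of the 16 in WT cells, beside 10.2% and 13.1% of all genes. It raised 9 and lowered 1 in labelled ones, beside 13.0% and 12.0% of all genes. Il2ra and Il4ra are in this list and in the list of receptors.

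**Figure D4:**
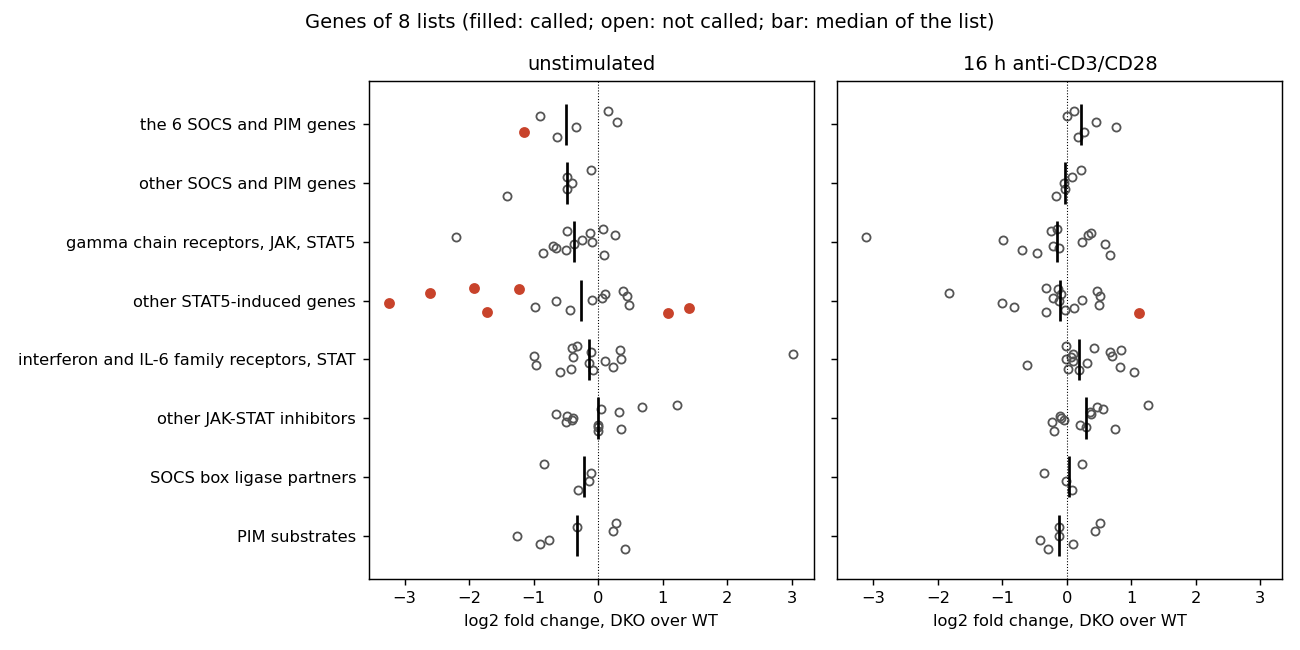
Log2 fold change of libraries labelled DKO over WT (x axis) for each gene of 8 lists in unstimulated cells and after 16 h of anti-CD3/CD28 (filled circles, called by limma; open circles, not called; bars, median of the list; vertical offsets only separate the points). In unstimulated cells 1 of the 6 SOCS and PIM genes and 7 of 16 other STAT5-induced genes are filled, and after stimulation 1 gene of the latter, Bcl2.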

How the data were processed

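RNA of sorted Treg cells was sequenced in 8 libraries, grouped by the genotype and stimulation in the labels. The methods name Bowtie, NCBIM37, HTSeq, removal of PCR duplicates with Picard, and DESeq2, whereas the submitters' processing notes name bcl2fastq 1.8.4, STAR 2.7, mm10 and DESeq2. Which of these made the table is not given in the sources used here, so no gene coordinates are printed other than RefSeq promoter windows. The library kit is also named differently in both, and reads from overlapping antisense genes may not be separated. The deposited values (signal in unit) are counts of reads on each gene after the authors scaled each library by its own size factor. All values (100%) were whole multiples of the value of 1 read within 0.006 normalized counts. This recovered whole reads for edgeR and DESeq2, which are alternatives because the values deposited are not counts.

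Genes whose mean reached 10 normalized counts were fitted with limma 3.58.1 (eBayes with a trend, R 4.3.3) on log2(value + 1), the 4 groups sharing 1 spread. Fold changes are on this scale. Tests were 2-sided and p was adjusted by Benjamini-Hochberg within each of 5 contrasts. The p-values rest on this shared spread, taken between 2 pooled samples per group. Replicates were not equally far apart in all groups. Their scatter across genes, as chi-square over degrees of freedom, was 9.96 in unstimulated WT and 11.6 in stimulated WT libraries. It was 68.8 in unstimulated and 33.0 in stimulated DKO-labelled libraries. Intervals may thus be too narrow for contrasts with unstimulated DKO-labelled libraries and too wide for stimulation of WT cells. Scripts were tested on simulated data. The 6 genes and all lists were chosen with earlier results of these data known. Besides the 6, the text names the 3 genes most alike to each, 8 genes of the IL-2 relay, and up to 4 called genes of a list, largest first. For Cish, 1 of its 3 is not reported here. Tnfrsf18, Pim3, Bcl2, Ccnd3, Foxp3, Cd3e, Cd4, C1qa, C1qc, Cd68, Itgam and genes named for a DESeq2 call alone fall outside this rule. They were named after their values were seen. Lengths for values per kb are from GENCODE vM1. Alternatives were pseudocounts of 0.1 and 5, every gene above 0, a mean of at least 100, equal totals, quantile normalization, equal upper quartiles, DESeq2 1.42.0, edgeR 4.0.16 with its quasi-likelihood test, fits to 4 libraries, a replicate block, and each library left out.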

Additional observations from a re-analysis of the deposited data

Results flagged for a closer look

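For Pim1 and Pim2, every DKO-labelled library lay below both WT libraries before stimulation and above both after it. Of all genes, 27.1% lay below in the first state and 24.3% above in the second. These are shares of each state alone, and the share of genes with both was not counted. Of these 4 genotype differences, that of unstimulated Pim1 passed the adjusted test (limma adjusted p = 0.0498) and the other 3 did not. The difference between the states was 1.42 on the log2 scale for Pim1 and 1.11 for Pim2, and neither passed the adjusted test (limma adjusted p = 0.556 and 0.560). Pim2 in unstimulated DKO-labelled replicate 2, with 307 normalized counts, lay just under the lower WT library with 310.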

How the results depend on the processing

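With 2 libraries a group, 1 of them often decided a call, and the depth limits Socs1 in unstimulated cells. In unstimulated cells, the count of called genes by genotype was 1 (Pim1). It was 0 with a pseudocount of 0.1, every gene above 0, equal totals, equal upper quartiles, edgeR or 4 libraries alone (adjusted p of Pim1 0.0606, 0.0931, 0.0616, 0.0668, 0.0665 and 0.117), 2 with DESeq2, and 0 to 2 with 1 library left out. Without WT replicate 3 or 4 it was 0, with 0.0519% and 0.149% of all genes called in place of 4.73%. The interaction count of 0 became 0 to 1 with 1 library left out (1.27% of all genes without DKO-labelled unstimulated replicate 2), and the WT stimulation count of 6 became 4 in each such fit, where 6.30% to 8.18% of all genes were called in place of 23.3%. The DKO-labelled stimulation count was 5 to 6 in them. After stimulation the genotype count was 0 under every alternative, but few of all genes were called there. Their share was 0.272% in the main fit, 0.0065% with edgeR or 4 libraries alone, and 0.0032% with every gene above 0. It was 1.31% with quantile normalization, 2.55% with the replicate block and 3.57% with DESeq2. A count of 0 of 6 therefore says little about these genes. The genotype difference of Socs2 after stimulation changed sign to 0.0090 with equal upper quartiles, 0.0066 with edgeR and 0.015 with DESeq2, and the stimulation difference of Pim1 in DKO-labelled libraries to 0.23 with equal totals. Leaving out 1 library also changed signs. Unstimulated, Socs1 ranged from -0.24 to 0.82 and Socs3 from -0.29 to 0.61. Stimulated, Cish ranged from -0.0061 to 0.35, Socs2 from -0.28 to 0.28 and Socs3 from -0.025 to 0.25. Interactions ranged from -0.37 to 0.68 for Socs1 and -0.50 to 0.40 for Socs3, and stimulation of Pim1 in DKO-labelled libraries from -0.66 to 0.35. The cause of these changes was not tested. For single genes, 411 values kept their direction and side of the threshold, 18 lost a call, 5 gained one and 16 changed sign. Equal totals moved the median of all genes to 0.52 and 0.35 for stimulation in WT and DKO-labelled libraries. The split of calls became 974 lower and 4258 higher in WT (2013 and 1580 otherwise) and 1077 and 3791 in DKO-labelled libraries (1855 and 1997 otherwise).

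The replicate block could be fitted where groups share numbers 1 and 2. It left 0 called genes by genotype after stimulation (Pim2 0.76, adjusted p = 0.0794) and 5 for stimulation of DKO-labelled cells. Deviations from the group mean were compared between same-numbered libraries across 15419 genes. Their correlation was 0.167 between stimulated WT and stimulated DKO-labelled libraries. It was 0.257 between unstimulated and stimulated DKO-labelled libraries. Nothing in the labels says that same-numbered libraries share animals. For unstimulated cells and for stimulation of WT cells, no paired analysis was possible because the WT unstimulated libraries are numbered 3 and 4.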

Other observations

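The 4 further lists around the 6 genes held no gene called by genotype with limma or edgeR in either state. Of all genes, limma called 4.73% and edgeR 3.14% in unstimulated cells, and 0.272% and 0.0065% after stimulation. In unstimulated DKO-labelled libraries DESeq2 on recovered reads called Il10ra of the receptors and STAT factors lower and Usp18 of the other inhibitors higher. After stimulation it called Ifnar1, Stat2 and Usp18, all higher. It called none of the SOCS box partners or PIM substrates. Of all genes, DESeq2 called 8.68% in unstimulated cells and 3.57% after stimulation. Unadjusted p under 0.05 with limma was reached by 3, 2, 1 and 1 genes of the 4 lists in unstimulated cells and by 4, 3, 0 and 0 after stimulation, in the order given here. At that p and more than 1.5-fold, 11.1% of all genes lay below 0 and 8.68% above in unstimulated cells. After stimulation these shares were 6.95% and 5.60%. Of 15 receptors, JAK kinases and STAT factors of interferon and IL-6 family cytokines, 10 were below and 5 above 0 in unstimulated DKO-labelled libraries (median log2 fold change -0.14), and 3 below and 12 above after stimulation (median 0.19). The 13 other inhibitors of JAK-STAT signalling are phosphatases, PIAS proteins, CBL ligases, an adaptor and USP18. Of these 13 genes, 8 were below and 5 above 0 in unstimulated cells (median -0.01), and 5 below and 8 above after stimulation (median 0.30). The 4 partners of the SOCS box in its ubiquitin ligase had medians of -0.22 and 0.03. The 7 genes whose proteins PIM kinases phosphorylate had medians of -0.33 and -0.11. The 10 immediate early and heat shock genes had medians of 0.24 and 0.69, with 0 called by limma or edgeR and 3 by DESeq2 in each state; 4 and 5 of them had an unadjusted p under 0.05.

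In WT cells, stimulation lowered 5 of the 15 receptors and STAT factors and raised 0, beside 13.1% and 10.2% of all genes. In DKO-labelled cells it lowered 1 and raised 2, beside 12.0% and 13.0% of all genes. Of the 10 immediate early and heat shock genes it lowered 8 in WT cells and 7 in DKO-labelled ones. Whether these counts differ between the genotypes was not tested.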
